A study of Arabidopsis thaliana with 12 samples.

Results

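The mitochondrial ATP synthase of Arabidopsis is built from subunits that are encoded in 2 genomes, and 10 of its genes were followed here from messenger RNA to ribosome footprints. The genes were chosen by identifier among the 27655 genes of both expression tables by a rule that contains no measured value. The 6 mitochondrial genes are ATMG01190 (atp1, subunit α), ATMG00640 (atp4, subunit b), ATMG00410 and ATMG01170 (atp6-1 and atp6-2, subunit a), ATMG00480 (atp8, subunit 8) and ATMG01080 (atp9, subunit c). The 4 nuclear genes are AT5G08670, AT5G08680 and AT5G08690, which encode subunit β, and AT2G33040, which encodes subunit γ. All 10 genes had counts in both assays and passed the minimum RNA-seq level of 0.1 TPM, a read abundance corrected for gene length and for the total of the table.

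ATP synthase makes ATP from ADP and phosphate with the energy of protons that flow back across the inner mitochondrial membrane. Its soluble head is a ring of alternating α and β subunits around the γ shaft, and the catalytic sites lie mainly on β. In the membrane, protons pass between subunit a and a rotating ring of c subunits, while subunit b forms part of the stalk that holds the head still. Plant mitochondria kept genes for α, a, b, c and subunit 8 in their own genome, where they are transcribed and translated inside the organelle. The β and γ subunits are made on cytosolic ribosomes and imported.

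Ribo-seq, which sequences the RNA fragments protected by ribosomes, and RNA-seq of rRNA-depleted RNA were carried out on Col-0 seedlings of Arabidopsis thaliana aged 7 days, with 6 libraries per assay. The seedlings grew in liquid medium with 16 h of light and 8 h of dark, all received DMSO at 0.1% of the medium volume as a mock treatment at Zeitgeber time 3 h, and were harvested 20 or 60 min later. Cycloheximide and chloramphenicol, inhibitors of cytosolic and of organellar ribosomes, were both in the lysis buffer, and footprints were cut from gels at 28 to 30 nt. The labels do not say which libraries are from which harvest. The deposited tables hold 1 pooled value per gene and assay, so no spread between biological replicates can be given and no difference was tested. Intervals in the text are exact 95% Poisson intervals on the counts and cover counting error only.

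The expected counts summed to 299584069 in Ribo-seq and 51390094 in RNA-seq. The sample descriptions of the Ribo-seq libraries name root, whereas their titles and source name seedlings. The 4 green tissue markers examined, among them the RuBisCO small subunit gene RBCS1A, lay between 1394 and 9676 TPM in Ribo-seq, and the 7 root markers between 0.75 TPM (PLT1) and 4634 TPM (PYK10), so transcripts of green tissue and of root were both present. In seedlings ground whole, fewer cells or mitochondria of a kind and less RNA per cell cannot be told apart.

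The positions of the genes bear on how their reads can be counted. On the TAIR10.1 assembly the mitochondrial genes lie apart from each other on the organelle genome, each as 1 uninterrupted coding exon: atp6-1 at 49423 to 50580 and atp4 at 362206 to 362784 on the plus strand, and atp1 at 67098 to 68621, atp8 at 247016 to 247492, atp6-2 at 264467 to 265516 and atp9 at 270961 to 271218 on the minus strand. The 3 β genes are neighbours on chromosome 5, at 2818395 to 2821149 on the minus strand and at 2821992 to 2824683 and 2825739 to 2828352 on the plus strand, with 9 coding exons each. The γ gene lies on the minus strand of chromosome 2 at 14018978 to 14021047 and has 8 coding exons. The G and C content of the coding sequences was 37.6% to 44.8% in the mitochondrial genes and 46.0% to 50.0% in the nuclear genes.

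Nuclear coding lengths were equal in the tables and in TAIR10.1 for 99.1% of 21957 genes compared. The mitochondrial sequence behind the tables may be another, since the tables list 122 mitochondrial genes and the reference 33 with protein products. The lengths of 5 of the 6 mitochondrial genes were the same in both. The atp9 gene has 258 nt in the tables and 225 nt in the reference, and was read here with the 33 nt upstream of the reference start.

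Chromosome 2 of Arabidopsis carries a large insertion of mitochondrial DNA, and 4 of its annotated genes repeat mitochondrial members. On TAIR10.1 the coding sequences of atp9, atp8 and atp6-1 were identical, base for base, to those of AT2G07671 (258 nt), AT2G07707 (477 nt) and AT2G07741 (1158 nt). The atp9 sequence is shown in full because a read of it fits either locus equally well. It stands at chr2:3251856-3252113 on the minus strand as well as on the mitochondrial genome, and the capitals mark the 33 bases that precede the start codon of the reference annotation.
atp9 and AT2G07671: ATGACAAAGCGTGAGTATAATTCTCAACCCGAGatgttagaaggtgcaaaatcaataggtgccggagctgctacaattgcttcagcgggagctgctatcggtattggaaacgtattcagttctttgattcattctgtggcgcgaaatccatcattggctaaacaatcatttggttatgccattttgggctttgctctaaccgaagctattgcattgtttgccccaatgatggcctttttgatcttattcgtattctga

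The α gene atp1 differs from its counterpart AT2G07698 at the beginning only. AT2G07698 is annotated with 2334 coding nt in 2 exons at 3361474 to 3364028 on the plus strand of chromosome 2, and its last 1509 nt are the last 1509 nt of atp1. The start of atp1 and the exon junction of AT2G07698 are shown because the annotated coding sequences part at the lower-case bases, and the capitals mark the first 30 bases of the shared run. The atp1 line covers 68577 to 68621 on the minus strand of the mitochondrial genome, and the AT2G07698 line is spliced, joining bases within chr2:3362269-3362549 on the plus strand.
atp1: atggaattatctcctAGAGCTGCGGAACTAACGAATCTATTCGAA
AT2G07698: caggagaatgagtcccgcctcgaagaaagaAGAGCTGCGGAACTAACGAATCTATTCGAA

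The copies of subunit a have unlike beginnings and a common end. The last 761 nt were the same in atp6-1, of 1158 nt, and atp6-2, of 1050 nt. The lines show the point where they meet, at 49790 to 49849 on the plus strand and 265198 to 265257 on the minus strand of the mitochondrial genome, with the first 30 shared bases in capitals.
atp6-1: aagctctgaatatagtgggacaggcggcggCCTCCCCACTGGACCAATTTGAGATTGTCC
atp6-2: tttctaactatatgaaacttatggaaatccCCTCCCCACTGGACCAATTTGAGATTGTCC

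The b gene atp4 shared no 28-base word of its coding sequence with chromosome 2, so it is the mitochondrial member whose counts can be read without a copy. Its first 60 coding bases, 362206 to 362265 on the plus strand, are given as an example of a sequence found once in the assembly.
atp4: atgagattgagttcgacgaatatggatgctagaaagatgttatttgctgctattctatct

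The β genes are similar but can be told apart over most of their coding sequence. Their coding sequences were 91.0% to 94.4% identical in pairs, and pairs shared 12.5% to 22.9% of their 28-base words and no more than 3.56% of their 100-base words. A stretch of 60 bases within 1 exon is shown for each, on the minus strand at chr5:2818770-2818829 and on the plus strand at chr5:2824228-2824287 and chr5:2828073-2828132, with capitals at the 8 positions where the 3 genes are not all alike.
AT5G08670: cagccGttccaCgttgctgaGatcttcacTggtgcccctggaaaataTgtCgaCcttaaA
AT5G08680: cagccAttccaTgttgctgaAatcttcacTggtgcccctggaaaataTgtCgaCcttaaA
AT5G08690: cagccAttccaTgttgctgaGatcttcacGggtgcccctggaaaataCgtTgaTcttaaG

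Among the mitochondrial genes, the order of footprint levels and the order of RNA levels were not the same. The c gene atp9 had the highest footprint level, 1254.5 TPM (interval 1247 to 1262) in Ribo-seq, against 837 TPM (812 to 862) in RNA-seq. The α gene atp1 had 478 TPM (476 to 479) in Ribo-seq and 1356 TPM (1348 to 1364) in RNA-seq, which was the highest RNA level of all 122 mitochondrial genes in the tables. By footprints it was the fourth of them, and atp9 was the second.

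The other mitochondrial members also changed places between the assays. The b gene atp4 had 403 TPM (400.2 to 406) in Ribo-seq and 214 TPM (208 to 219) in RNA-seq, so that it had the lowest RNA level of the 6 but the third highest footprint level. Subunit 8, a small membrane protein of the stator, showed the reverse: atp8 had 190 TPM (187 to 192) in Ribo-seq and 800 TPM (787 to 812) in RNA-seq. By their own counts, the copies of subunit a, the proton channel, had the lowest footprint levels of all 10 genes. For atp6-1 these were 94.7 TPM (93.8 to 95.7) in Ribo-seq and 398 TPM (393 to 403) in RNA-seq, and for atp6-2 they were 138 TPM (137 to 139) in Ribo-seq and 459 TPM (454 to 465) in RNA-seq.

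The nuclear members, the β copies and γ, lay in a narrow band. The γ gene AT2G33040 had 434 TPM (432 to 436) in Ribo-seq and 216 TPM (212 to 220) in RNA-seq. Of the β genes, AT5G08670 had 389 TPM (388 to 391) in Ribo-seq and 317 TPM (313 to 320) in RNA-seq, AT5G08690 had 349 TPM (348 to 351) in Ribo-seq and 298 TPM (295 to 302) in RNA-seq, and AT5G08680 had 245 TPM (244 to 247) in Ribo-seq and 160 TPM (158 to 163) in RNA-seq. The order of the 3 β genes was the same in both assays. AT5G08680 held 25.0% of the β footprints and 20.7% of the β RNA counts, AT5G08670 held 39.5% and 40.8%, and AT5G08690 held 35.5% and 38.4%. Short reads are more often shared among these genes. Of their 28-base words 22.8% to 31.9% occurred more than once in the genome, against 1.20% to 2.54% of their 100-base words. The effect of shared reads on the β shares and ratios was not tested.

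Taking all 10 genes by footprints, the order was atp9, atp1, γ, atp4, AT5G08670, AT5G08690, AT5G08680, atp8, atp6-2 and atp6-1, and no neighbours had overlapping counting intervals. By RNA it was atp1, atp9, atp8, atp6-2, atp6-1, AT5G08670, AT5G08690, γ, atp4 and AT5G08680, in which the intervals of atp9 and atp8 and those of γ and atp4 overlapped. The highest and lowest footprint levels were 13.2-fold apart in the mitochondrial genes and 1.77-fold apart in the nuclear genes. In RNA-seq the mitochondrial genes spanned 6.35-fold and the nuclear genes 1.98-fold. The nuclear spans cover the β copies and γ alone. The 10 other nuclear subunit genes examined below spanned 10.9-fold in Ribo-seq and 38.7-fold in RNA-seq. By their own counts, the 6 mitochondrial genes spanned the whole range of footprint levels, from below to above the nuclear 4, whereas 5 of them had more RNA than any of the 4 nuclear genes. These orders and spans use own counts, so the low places depend on how shared reads were divided. With counts of the genes that share their sequence added, atp6-1 came to 362 TPM, atp8 to 381 TPM and atp6-2 to 401 TPM in Ribo-seq. All 3 values lie above the 349 TPM that AT5G08690 had by its own counts. With the counts of the other β genes added in the same way, AT5G08690 came to 986 TPM. The sums for atp6-1 and atp6-2 hold the same counts of 3 genes and are not separate levels.

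**Figure D1:**
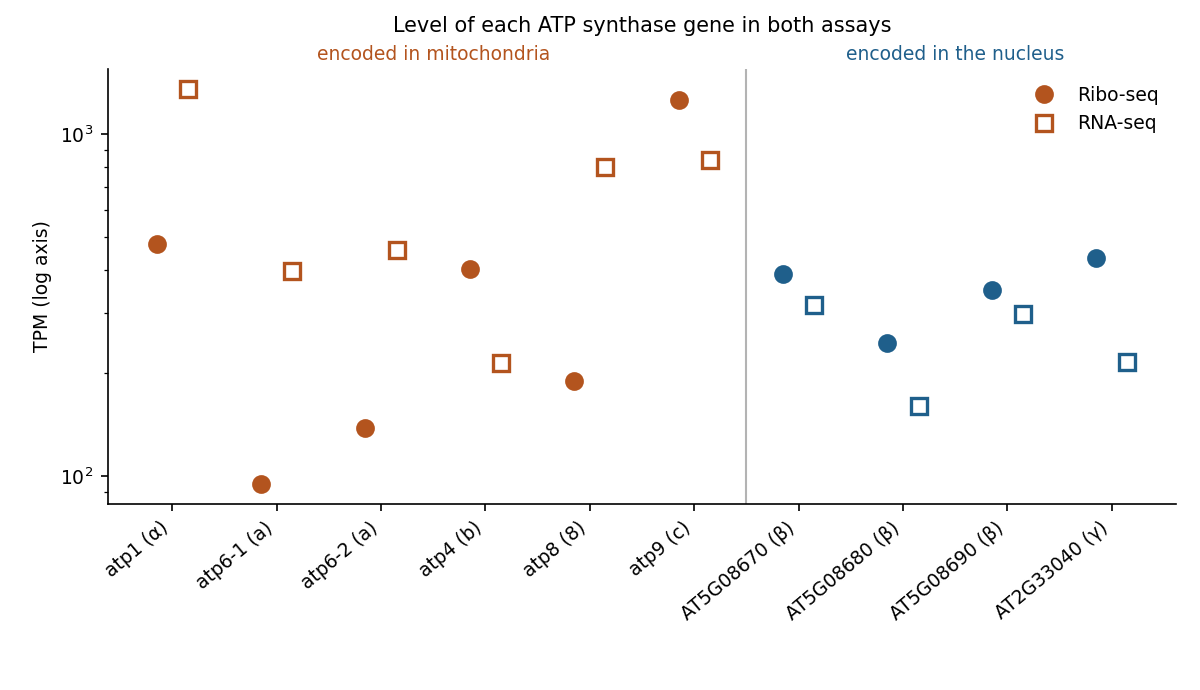
Level of each gene in TPM on a log axis, with filled circles for Ribo-seq and open squares for RNA-seq, each a single pooled value. Circles lie below squares for atp1, atp6-1, atp6-2 and atp8, and above them for atp4, atp9 and the 4 nuclear genes, whose footprint levels all fall between 245 and 434 TPM.

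Footprints per RNA separated the mitochondrial genes into a low and a high set. The measure is the log2 ratio of Ribo-seq TPM to RNA-seq TPM with 0.1 added to both, a ratio of ribosome occupancy that is relative to all other genes of the tables. The values of 4 genes were below -1: -2.08 (-2.11 to -2.04) for atp8, -2.07 (-2.10 to -2.04) for atp6-1, -1.73 (-1.76 to -1.70) for atp6-2 and -1.51 (-1.52 to -1.49) for atp1. The other mitochondrial genes had positive values, 0.92 (0.87 to 0.96) for atp4 and 0.58 (0.53 to 0.64) for atp9. There was no mitochondrial member between -1.51 and 0.58, and atp4 and atp9 stayed positive on each of the scales tried.

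All 4 nuclear genes were positive as deposited, as were 55.6% of all genes and 56.1% of nuclear genes. The γ gene stood at 1.01 (0.98 to 1.04), and the β genes at 0.62 (0.59 to 0.65) for AT5G08680, 0.30 (0.28 to 0.32) for AT5G08670 and 0.23 (0.21 to 0.25) for AT5G08690. The sign of the smallest values depended on the scale, since AT5G08670 and AT5G08690 came to -0.03 and -0.10 with counts divided by full coding lengths, and to -0.15 and -0.22 with TPM taken over nuclear genes alone. Those scales moved the median of all genes by -0.17 and -0.43. The γ value lay above those of 91.8% of all genes.

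By genome of origin, the median log2 ratio was -1.62 in the 6 mitochondrial genes and 0.46 in the 4 nuclear genes, a difference of -2.08. Any difference in footprint recovery between mitochondrial and cytosolic ribosomes would be part of this value and was not tested. The values overlapped, because atp4 and atp9 lay within the range of the nuclear genes. Of the mitochondrial members 4 of 6 lay below -1, and of the nuclear members 0 of 4. Over the whole data, 10.9% of the 21620 genes with a ratio, 10.1% of nuclear genes and 83.5% of mitochondrial genes did. Above 1 were 0 of the mitochondrial genes and 1 of the nuclear genes, γ, whose interval includes 1, against 8.39% of all genes, 8.44% of nuclear genes and 4.13% of mitochondrial genes. The median over all genes was 0.11.

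The place of the mitochondrial members within their genome depended on the genes they were set beside. The 121 mitochondrial genes with a ratio had a median of -4.20, 83.5% of them lay below -1, and 9.92% lay above 0, atp4 and atp9 among them. In the ranking of these 121 genes from the highest ratio down, atp4 was number 7, atp9 number 10, atp1 number 25, atp6-2 number 29, atp6-1 number 33 and atp8 number 34. Many entries of the mitochondrial annotation are open reading frames with no known product, and they are included in these figures. Beside 17 mitochondrial entries listed for respiratory complexes I, III and IV, whose median was -0.35, the members at -1.62 were the lower set by median. The values overlapped, since these entries ranged from -1.90 to 3.35 and 5 of the 17 lay below -1, as did 4 of the 6 members. Several of these entries were listed under the same gene name and are not all separate genes. Together the 6 genes held 32.3% of the footprints and 32.0% of the RNA counts of the mitochondrial genes. By their own counts, the mitochondrial 6 took 0.176% and the nuclear 4 took 0.230% of all footprints in the table. Of all RNA counts, the mitochondrial 6 took 0.385% and the nuclear 4 took 0.171%. The mitochondrial shares leave out reads that fell on the chromosome 2 copies. With its copy, atp1 had 493518 footprints and atp9 had 192153, beside 688494 for the nuclear 4 together. The order of the footprint shares can therefore depend on the copies.

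**Figure D2:**
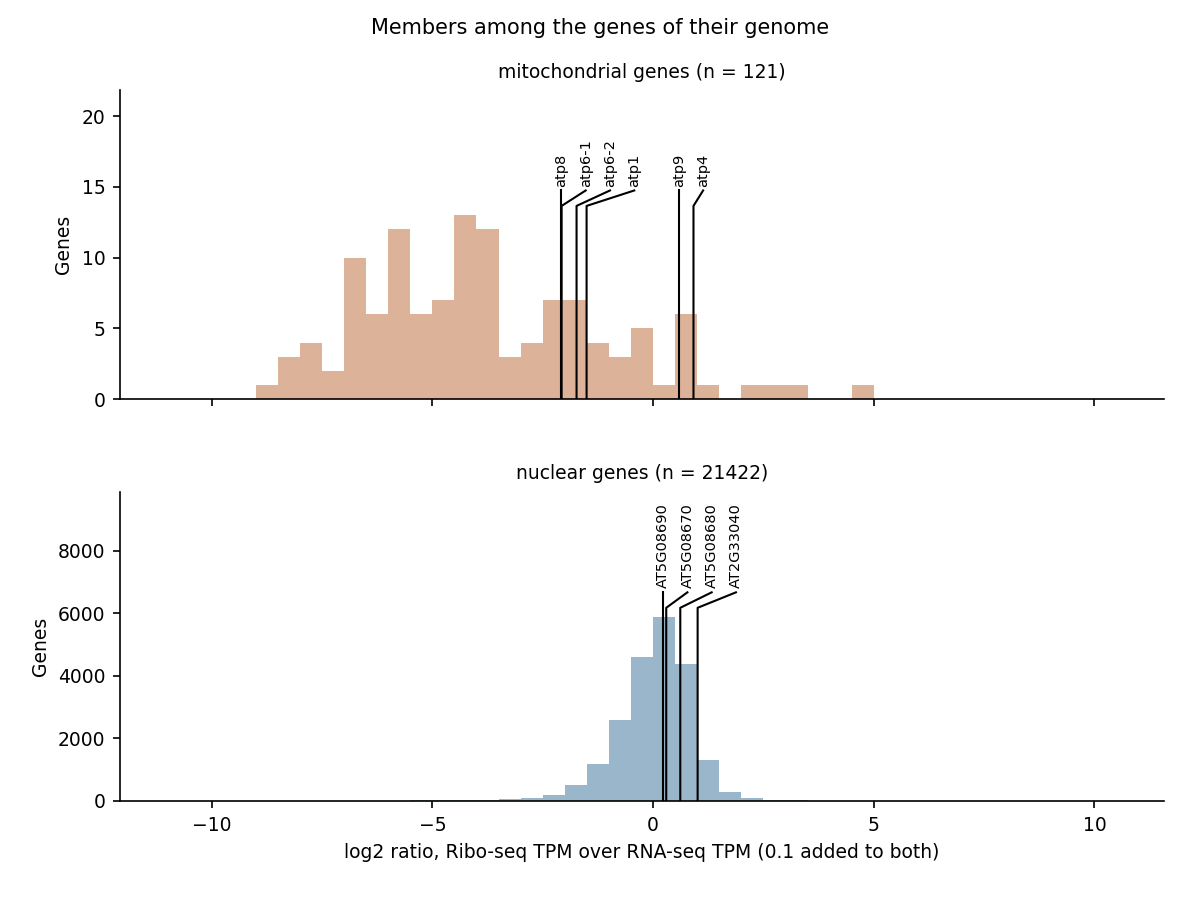
Distribution of the log2 ratio of Ribo-seq to RNA-seq TPM over the 121 mitochondrial genes and the 21422 nuclear genes with RNA-seq TPM over 0.1, in bins of 0.5, with a line for each ATP synthase gene. The mitochondrial members lie to the right of the median of their distribution, -4.20, and the nuclear members lie to the right of the nuclear median of 0.12.

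The members differ in coding length, and short genes have short effective lengths, the length left after the fragment size is taken off. Nuclear genes within 20% of the length of each mitochondrial member had median ratios of 0.14 for atp1 (5272 genes), 0.35 for atp4 (2795 genes), 0.19 for atp6-1 (5509 genes), 0.22 for atp6-2 (5186 genes), 0.32 for atp8 (2182 genes) and -0.01 for atp9 (809 genes). The member minus the median of its length class was 0.57 for atp4 and 0.59 for atp9, and -1.64 for atp1, -1.95 for atp6-2, -2.27 for atp6-1 and -2.40 for atp8. For atp9 the effective length was 231 nt in Ribo-seq but 79.5 nt in RNA-seq, so that its RNA level, from 4423 counts, depends strongly on this term, and its ratio was 1.65 when full coding lengths were used.

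The copies of atp8 and atp9 on chromosome 2 took about the same number of counts as the genes they repeat. The atp8 gene had 28894 footprints and AT2G07707 29120, and in RNA-seq atp8 had 15450 counts and AT2G07707 15577. This is a share of 49.8% for atp8 in Ribo-seq (exact binomial interval 49.4 to 50.2) and of 49.8% in RNA-seq (49.2 to 50.4). For atp9 the share was 51.1% in Ribo-seq (50.8 to 51.3) and 51.0% in RNA-seq (49.9 to 52.0). Both identical pairs were thus divided almost evenly in both assays.

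The shares were less even for α and subunit a. In the pair of atp6-1 and AT2G07741, also identical on TAIR10.1, atp6-1 held 39.9% of the footprints (39.6 to 40.2) and 50.7% of the RNA counts (50.2 to 51.1). When atp6-2 was included, the footprints of the 3 genes fell 26.1% to atp6-1, 34.5% to atp6-2 and 39.4% to AT2G07741, and the RNA counts 33.4%, 34.2% and 32.5% in the same order. For α, atp1 held 49.0% of the footprints (48.9 to 49.2) and 40.0% of the RNA counts (39.8 to 40.2), with the rest on AT2G07698. From which locus a read of a shared stretch came cannot be told apart in these tables, and no source used here says how reads that fit several genes were assigned.

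**Figure D3:**
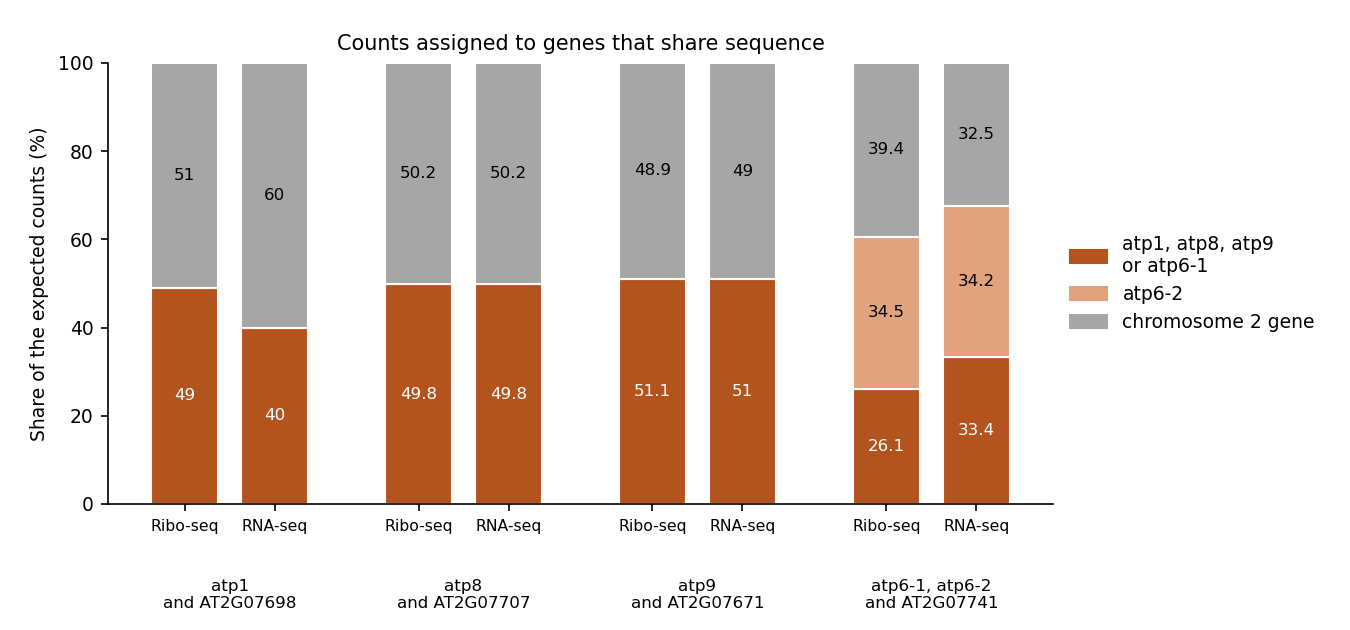
Share of the expected counts, in percent, that each gene took within a group of genes with shared sequence, in Ribo-seq and RNA-seq. The identical pairs of atp8 and atp9 divide at 49.8% and close to 51%, whereas atp1 holds 49.0% of the footprints and 40.0% of the RNA counts of its pair.

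The levels of 5 mitochondrial members therefore depend on whether the counts of the copies are added. With them added, over the effective length of the member, subunit c reached 2457 TPM in Ribo-seq and 1641 TPM in RNA-seq, and subunit 8 reached 381 TPM in Ribo-seq and 1606 TPM in RNA-seq. Subunit a, from atp6-1, atp6-2 and AT2G07741, came to 362 TPM in Ribo-seq and 1194 TPM in RNA-seq. For α the sums were 974 TPM in Ribo-seq and 3391 TPM in RNA-seq, which are upper bounds because AT2G07698 has 827 coding nt in a first exon of its own. The ratios moved less than the levels, to -1.80 for atp1, -1.72 for atp6-1, -1.75 for atp6-2, -2.08 for atp8 and 0.58 for atp9. The number of mitochondrial genes below -1 was still 4 of 6, but atp6-1 and atp6-2 then had the same summed counts and are not separate measurements.

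The complex holds its subunits in fixed numbers, which gives a scale on which the levels can be set side by side. Whether footprints of mitochondrial and of cytosolic ribosomes were recovered equally was not tested. Values of mitochondrial subunits relative to γ or β therefore compare footprint levels and cannot be read as relative rates of synthesis. Known structures have 3 α and 3 β subunits to 1 γ, while the number of c subunits in the ring differs between organisms, with 10 in yeast and 8 in cattle, and was not measured here. By footprints the summed β genes had 984 TPM, 2.27 times the level of γ. Own counts of atp1 gave α at 1.10 times γ, and addition of AT2G07698 gave 2.24 times γ. Per subunit in the complex, α was thus at 0.367 of γ by its own counts and at 0.748 with the copy, beside 0.756 for β. The α values with the copy are upper bounds, because AT2G07698 has a first exon of its own whose counts are included.

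The relation of α to β depended on the copy and on the assay. As log2 values, α over summed β was -1.04 in Ribo-seq by own counts and -0.02 with AT2G07698 added. In RNA-seq it was 0.81 by own counts and 2.13 with the copy. The values with the copy are upper bounds. By either count α had more RNA than β. Its footprints were below those of β by own counts and level with them only at the upper bound.

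Of the subunits present once, 7 were set side by side, and they lay closer together in footprints than in RNA when the copies were added. By footprints and relative to γ, b stood at 0.928, a at 0.835, subunit 8 at 0.877, and the nuclear subunits δ at 1.13, OSCP at 1.06 and ε at 1.47, so that these 7 with γ spanned 1.76-fold. By RNA, b stood at 0.991, a at 5.54, subunit 8 at 7.45, δ at 1.17, OSCP at 1.13 and ε at 2.32, a span of 7.52-fold. With own counts only, a was at 0.536 and subunit 8 at 0.437 of γ in Ribo-seq, and a at 3.98 and subunit 8 at 3.71 of γ in RNA-seq. The spans were then 3.36-fold in Ribo-seq and 4.02-fold in RNA-seq, so the contrast between the assays was smaller. Subunit d (AT3G52300) and FAd (AT2G21870), outside this set, stood at 1.58 and 1.72 times γ in Ribo-seq and at 1.47 and 1.54 times γ in RNA-seq. Adding both widened the span with copies to 2.06-fold in Ribo-seq and left it at 7.52-fold in RNA-seq. The b subunit, which has no copy, was near γ in both assays.

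Subunit c was the most abundant by footprints but not per position in the ring. With the copy added it stood at 5.66 times γ in Ribo-seq and 7.61 times γ in RNA-seq, and with own counts at 2.89 and 3.88 times. For a ring of 10 the footprint level per subunit was 0.566 of γ with the copy and 0.289 without, and for a ring of 8 it was 0.707 with the copy and 0.361 without. The log2 of atp9 over atp1 was 1.39 in Ribo-seq and -0.70 in RNA-seq, and CPM, the count over the library total with no length term, turned the Ribo-seq value to -1.30 since the atp9 coding sequence is much the shorter.

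**Figure D4:**
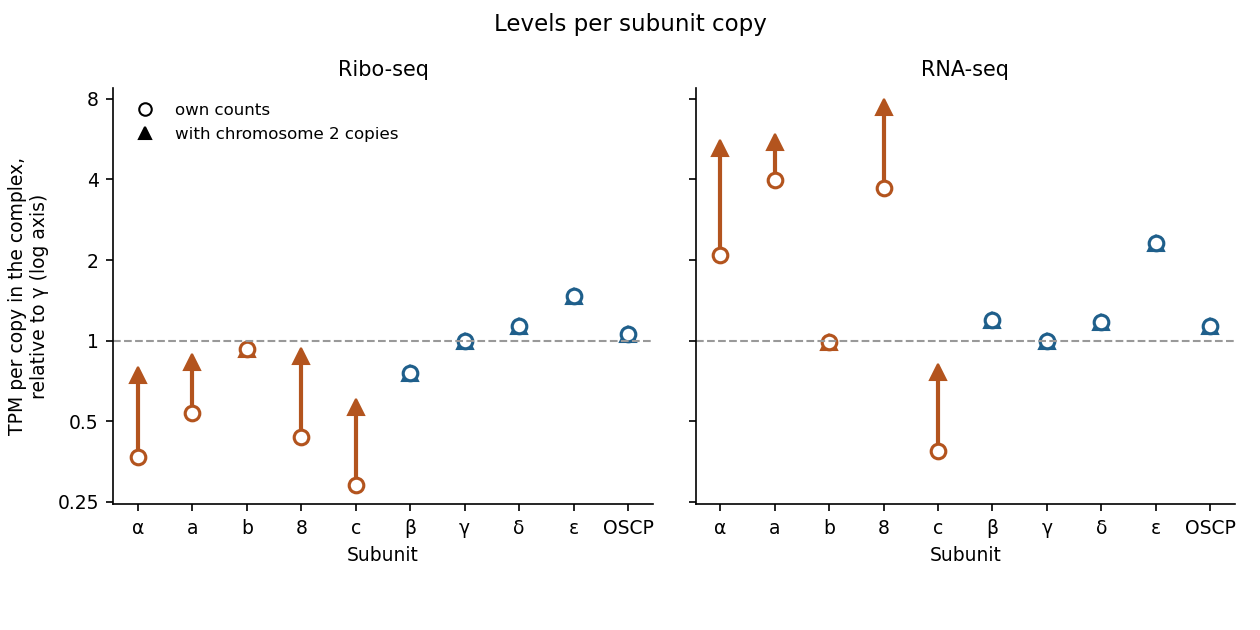
TPM per subunit in the complex relative to γ on a log axis, in Ribo-seq and in RNA-seq, with 3 copies of α and of β, 10 of c and 1 of the others. Open circles use the counts of the members alone and triangles add the copies on chromosome 2. With the copies added, footprint levels lie between 0.566 and 1.47 of γ, and RNA levels between 0.761 and 7.45 of γ. The triangles of α are upper bounds.

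The remaining nuclear subunits of the complex had a median log2 ratio of 0.94 over 10 genes, nearer to γ at 1.01 than to any β gene, with 8 above 0, 4 above 1 and 1 below -1. The shares over all nuclear genes were 56.1% above 0, 8.44% above 1 and 10.1% below -1. Of the head and stalk subunits, AT5G47030 (δ) had 492 TPM in Ribo-seq and 252 TPM in RNA-seq, with a ratio of 0.97, and AT5G13450 (OSCP, annotated as a delta subunit) had 460 TPM in Ribo-seq and 244 TPM in RNA-seq, with a ratio of 0.91. AT1G51650 (ε, which sits at the foot of γ) had 637 TPM in Ribo-seq and 501 TPM in RNA-seq, a ratio of 0.35. It has 213 coding nt and an effective length of 43.5 nt in RNA-seq, so that its RNA level and ratio depend strongly on this term.

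The highest footprint levels on the list were those of peripheral subunits. AT2G21870 (FAd, a plant subunit) had 746 TPM in Ribo-seq and 331 TPM in RNA-seq, a ratio of 1.17, and AT3G52300 (subunit d of the stalk) had 685 TPM in Ribo-seq and 318 TPM in RNA-seq, a ratio of 1.11. The genes of the 6 kDa subunit had the lowest ratios. AT5G59613 had 438 TPM in Ribo-seq and 1298 TPM in RNA-seq, a ratio of -1.57, and AT3G46430 had 201 TPM in Ribo-seq and 271 TPM in RNA-seq, a ratio of -0.43. Both have 168 coding nt and an effective length of 15.8 nt in RNA-seq, which makes those RNA levels uncertain.

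Genes that serve the complex without being part of its stoichiometry were much lower or moderate. The assembly factors of the head, AT2G34050 (ATP11) and AT5G40660 (ATP12), which are known in yeast to bind β and α before assembly, had 25.3 and 26.7 TPM in Ribo-seq, against 19.4 and 24.6 TPM in RNA-seq. The inhibitor gene AT5G04750 (IF1) had 125 TPM in Ribo-seq and 103 TPM in RNA-seq. All 3 ratios lay between 0.12 and 0.39.

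Genes of the other respiratory complexes that are encoded in mitochondria spread over a wide range of ratios. Of 18 such entries, 17 had a ratio, from -1.90 to 3.35 with a median of -0.35. Several entries were listed under the same name, nad1, nad2 or nad5, so the entries are not all separate genes. ATMG00665, listed under nad5, has 22 nt and had no counts. The highest ratio was that of ATMG01120, listed under nad1, with 273 nt and 85 RNA counts. Below -1 were 5 of the 17 and above 1 were 4, where 83.5% of all mitochondrial genes lay below -1 and 4.13% above 1. The 4 with the highest Ribo-seq TPM were ATMG00160, with the length of cox2, at 565 TPM in Ribo-seq and 394 TPM in RNA-seq (ratio 0.52), ATMG01360, with the length of cox1, at 461 TPM in Ribo-seq and 1168 TPM in RNA-seq (-1.34), ATMG00070, with the length of nad9, at 265 TPM in Ribo-seq and 130 TPM in RNA-seq (1.03), and ATMG00060 at 247 TPM in Ribo-seq and 593 TPM in RNA-seq (-1.26). The values of the gene with the length of cox1, the core subunit of cytochrome c oxidase, were close to those of atp1 in both assays. Copies of these genes on chromosome 2 were not searched for.

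The chloroplast ATP synthase is divided between genomes in a comparable way, with α and β both in the plastid. Its 6 plastid genes all lay below -1, with a median ratio of -2.82, as did 98.7% of the 77 plastid genes with a ratio, whose median was -3.38. Its 4 nuclear genes had a median of 0.91. Plastid atpA, the α counterpart of atp1, had 580 TPM in Ribo-seq and 3472 TPM in RNA-seq (ratio -2.58), and atpB, the counterpart of the nuclear β genes of mitochondria, had 530 TPM in Ribo-seq and 2806 TPM in RNA-seq (-2.40). The plastid c gene atpH had 1529 TPM in Ribo-seq and 10735 TPM in RNA-seq (-2.81), where atp9 was positive, and atpF, of a stalk subunit like atp4, had 399 TPM in Ribo-seq and 5172 TPM in RNA-seq (-3.69). The nuclear ATPC1 (γ) and ATPD (δ) had ratios of 1.02 and 1.04, beside 1.01 for mitochondrial γ. By own counts of atp1, its footprints and those of plastid atpA differed 1.21-fold and their RNA 2.56-fold, the plastid gene being higher in both. With AT2G07698 added, the upper bounds for α were 974 TPM in Ribo-seq, above atpA, and 3391 TPM in RNA-seq, slightly below atpA.

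**Figure D5:**
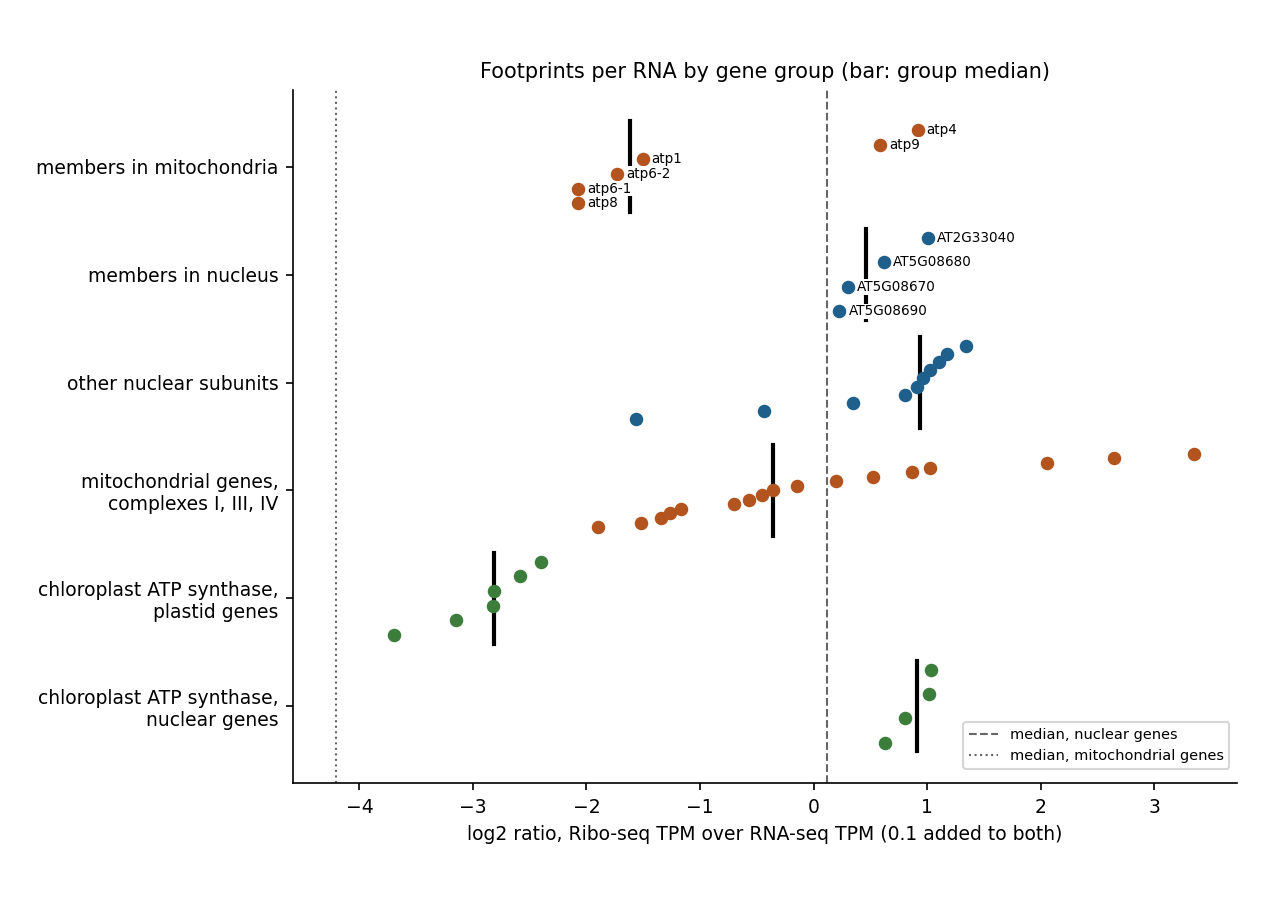
Log2 ratio of Ribo-seq TPM to RNA-seq TPM (0.1 added to both) for each gene, by group, with a black bar at the group median and dashed and dotted lines at the medians of all nuclear (0.12) and all mitochondrial genes (-4.20). The mitochondrial members form a low set between -2.08 and -1.51 and a high pair, and all plastid genes of the chloroplast enzyme lie below -1.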

How the data were processed

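The submitters' processing notes list RSEM 1.3.1, Bowtie2 2.3.4.1 and STAR without their roles. For each assay the authors deposited a single RSEM output. Its expected counts are estimated reads per gene, not normalized by the authors. The deposited TPM values divide these by effective coding lengths and scale them to a fixed total over all genes of a table. The FPKM column was left aside. The study's methods name the TAIR10 assembly and Araport11 genes for other steps. For these tables, build, annotation and the way libraries were combined are not stated in the sources used here. Expected counts were whole for all but 75 of 27655 genes in Ribo-seq and 20 in RNA-seq. With 1 value per assay no replicate enters and no test was made.

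The log2 ratio sets footprint TPM over RNA TPM after 0.1 was added to each, and was taken where RNA TPM exceeded 0.1. Its interval combines exact 95% Poisson intervals of both counts, and was checked on simulated data. The threshold of 1 on the log2 scale is a fixed size and no test. Shares have exact binomial (Clopper-Pearson) intervals. PCR reads carry no molecular identifiers, so all intervals cover counting error only.

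Coding sequences were read from RefSeq's TAIR10.1 annotation, nuclear genes by identifier and mitochondrial genes by name and length. Genes of the tables that hold at least 10% of a member's 28-base words were taken as copies. Of the 18 mitochondrial entries for other complexes, 12 were named by an equal coding length in the reference or by a note in it. The rest were listed from general knowledge of these identifiers. Those with the highest footprint levels are given by identifier only. The genes named are all members, their copies, and from each list those with the highest footprint levels or the lowest ratios by a fixed rule. The members and lists were chosen with earlier results of these data known. Alternatives were a pseudocount of 1, CPM, full coding lengths, TPM over nuclear genes alone, and counts summed with the copies. Python 3.11.15 with pandas 2.3.3, numpy 2.4.6, scipy 1.17.1, Biopython 1.88 and matplotlib 3.10.9 was used.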

Additional observations from a re-analysis of the deposited data

How the results depend on the processing

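Under every alternative 4 of the 6 mitochondrial genes stayed below -1, and the difference of the medians, mitochondrial minus nuclear genes, lay between -2.08 and -1.999. For this difference TPM over nuclear genes alone is no check, because it rescales all genes of an assay alike. A pseudocount of 1 could change little at the levels of these genes. With CPM the nuclear median was 0.41, the difference -1.999, α over β -1.18 in Ribo-seq and 0.66 in RNA-seq, and atp9 over atp1 -4.77 in RNA-seq. In Ribo-seq the sign of atp9 over atp1 turned to -1.30, because this scale has no length term. With full coding lengths the mitochondrial median was -1.87, the nuclear median 0.13, the difference -1.999, α over β 0.79 in RNA-seq, and atp9 over atp1 1.26 in Ribo-seq and -2.21 in RNA-seq. With TPM over nuclear genes alone the medians were -2.07 in mitochondrial and 0.011 in nuclear genes, and the median of all genes fell by 0.43. With the copies summed the medians were -1.73 in mitochondrial and 0.35 in nuclear genes, α over β was -0.016 in Ribo-seq and 2.13 in RNA-seq, and atp9 over atp1 was 1.34 in Ribo-seq and -1.05 in RNA-seq. For these medians the β genes were also summed with each other, and so were atp6-1 and atp6-2, so that their ratios are not separate values. The α sums with AT2G07698 are upper bounds. Relative to the median of all genes, the mitochondrial median was -1.84 to -1.69 and the nuclear one 0.19 to 0.38 over all scales. A pseudocount of 1 moved none of the 10 ratios beyond its counting interval. Below -1 were 9.63% of the genes with RNA-seq TPM over 1 and 8.48% of all genes without a minimum, against 10.9% as reported. No paired analysis was possible because each assay has 1 pooled column, although the labels give both assays the same sample numbers. Counting error is small at these depths, and the spread between seedlings is unknown.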

Other observations

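The values that follow were chosen after the data were seen. The tables hold a further mitochondrial gene whose name in the notes of the annotation refers to subunit 9, ATMG01090, with 789 coding nt. It had 509 footprints and 8039 RNA counts, that is 1.97 TPM (1.80 to 2.15) in Ribo-seq and 201 TPM (196 to 205) in RNA-seq, with a log2 ratio of -6.60. The atp9 gene, by contrast, stood at 0.58. The sequence of ATMG01090 was not examined here, so the part that reads shared with other genes have in its counts was not tested.

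The only mitochondrial gene with more footprints per length than atp9 was ATMG00280, which has 333 coding nt and is named in a note of the annotation as like the catalytic domain of the RuBisCO large chain, a plastid-encoded protein. It had 1941 TPM in Ribo-seq and 83.9 TPM in RNA-seq, from 201078 footprints and 829 RNA counts. Reads shared with plastid genes were not examined.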
